A study of Mus musculus with 24 samples.

Results

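Integrin subunits were followed through the activation and Th2 differentiation of CD4+ T cells, in the presence and absence of BAF180. The genes were Itga4, Itga6, Itgal, Itgav, Itgb1, Itgb2, Itgb3 and Itgb7, and their probes were all those that carry 1 of these 8 symbols in the array table. Of the 25697 probes of the table, 8 probes for 7 of the genes met this rule, with 2 probes for Itgb1. Itgal, the α subunit that pairs with the β2 chain on lymphocytes, was not analysed here. A probe was called detected on an array when its detection p-value, computed against the negative controls of the array, was at most 0.02. By this measure 6 probes for 6 genes were detected on at least 1 array and entered the tests, among 14246 such probes for 10418 genes.

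RNA came from CD4+ CD62L+ T cells purified to 95% from the spleens and lymph nodes of mice aged 4 to 6 weeks. WT mice were compared with BAF180 cKO mice, in which a floxed Pbrm1 gene, encoding BAF180, is deleted by a cre transgene under CD4 control, so that the gene is lost from late thymocyte development on and not in Th2 cells alone. Each genotype was taken through 4 states with 3 arrays per state, replicates A, B and C, which gave 24 arrays in 8 groups. Resting Naïve cells were the purified cells themselves. Stimulated Naïve cells had been plated for 24 h on 1 µg/ml of anti-CD3 with 2 µg/ml of anti-CD28. Resting Th2 cells had been started on the same 2 antibodies with IL-4 at 10 ng/ml and anti-IFN-gamma at 10 µg/ml, and were expanded in IL-2 at 100 U/ml. Stimulated Th2 cells were resting Th2 cells restimulated for 1.5 h with 50 ng/ml of PMA plus 500 ng/ml of ionomycin. The labels give the strain as Balb/c for every group, whereas the methods describe a mixed background, and whether mice were pooled for an array is not given in the sources used here.

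Integrins are heterodimers of an α and a β subunit that hold cells to each other and to the extracellular matrix. Circulating T cells rely on the β2 integrins for contact with antigen-presenting cells and vessel walls, on α4 with β1 or β7 for entry into inflamed tissue and gut, and on αv, β1 and β3 pairs for binding to matrix proteins such as fibronectin, vitronectin and osteopontin. Signals from the T cell receptor change both the binding strength of integrins already on the surface and, more slowly, the expression of their genes.

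The probes are 50-base sequences, and 4 of them are shown because they determine what the levels below can and cannot report. The Itga4 probe covers the end of the coding region (the stop codon is in capitals), the Itgb3 probe lies in the coding region of the subunit that was near the limit of detection, and the Itgb2 and Itgb7 probes lie in the coding regions of subunits detected on every array. The remaining probes are not printed.
Itga4: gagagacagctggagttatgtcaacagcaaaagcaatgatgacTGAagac
Itgb2: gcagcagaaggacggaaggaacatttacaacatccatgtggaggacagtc
Itgb3: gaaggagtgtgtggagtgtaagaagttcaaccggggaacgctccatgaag
Itgb7: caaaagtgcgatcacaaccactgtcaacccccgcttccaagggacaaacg

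Detection divided the probes. The probes for Itgav (chromosome 2), Itgb2 and Itgb7 (chromosome 15) were detected on 24 of 24 arrays, and so was the brighter of the 2 probes for Itgb1 (chromosome 8). The Itga6 probe was detected on 17 arrays and the Itgb3 probe (chromosome 11) on 2. The Itga4 probe was detected on 0 arrays, with intensities from 38.7 to 49.0 and a lowest detection p of 0.0251, so the α4 subunit has no reading above background in any state and no change could be tested for it. The second Itgb1 probe was also detected on 0 arrays. It starts at base 3472 of its transcript, while the detected Itgb1 probe starts at base 13 and has a GC content of 76.0%, against 44.0% to 56.0% for the other 7 probes. The values given for Itgb1 therefore rest on a probe at the 5′ end of the transcript, although the labelling was primed from the poly(A) tail.

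**Figure D1:**
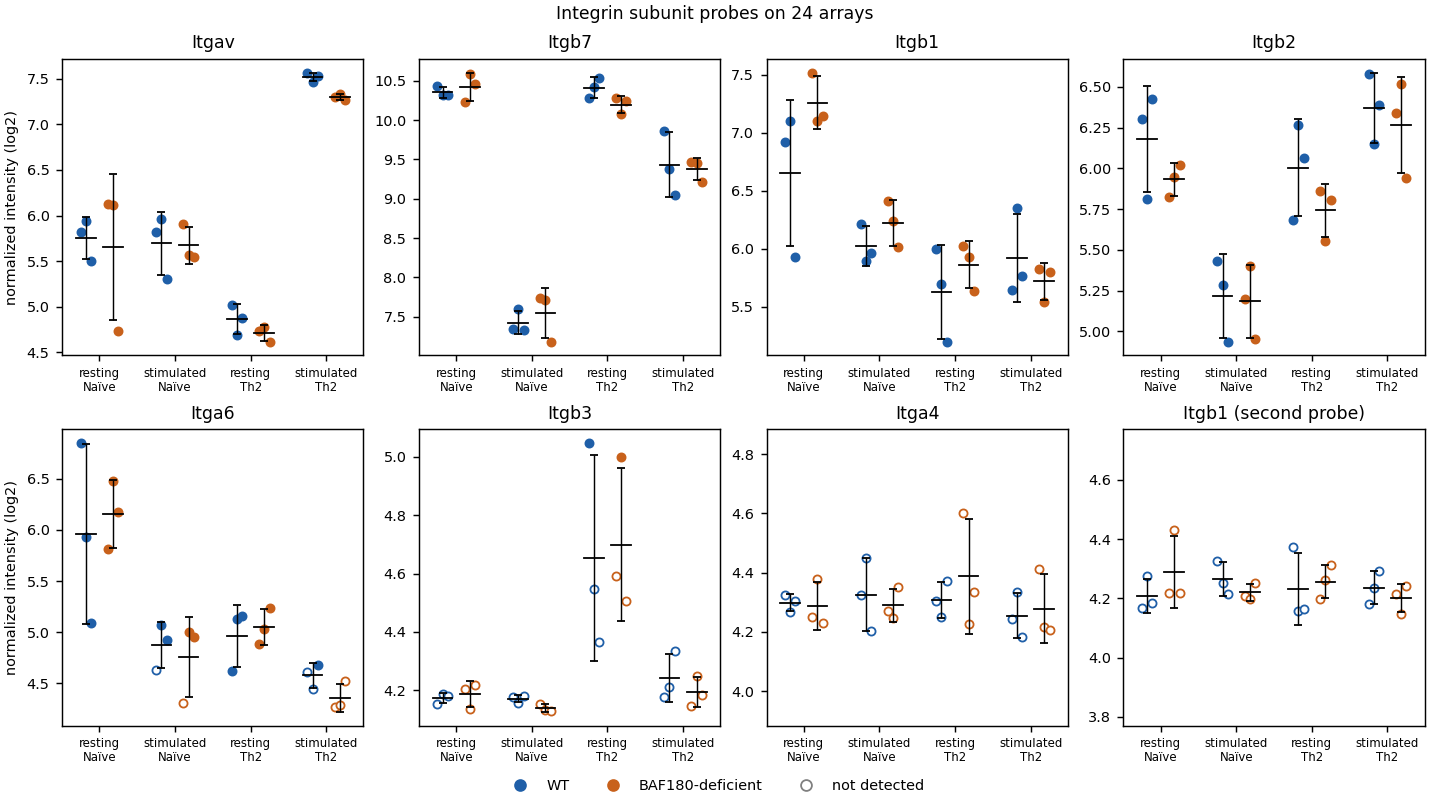
Normalized log2 intensity (y axis) of the 8 integrin probes on each array by cell state (x axis), with filled points for arrays on which the probe was detected, and bars for the mean ± SD of the 3 arrays of a group. The y axes differ between panels. Itgav stood highest in stimulated Th2 cells, Itgb7 lowest in stimulated Naïve cells, and the Itga4 probe and the second Itgb1 probe were not detected on any array.

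Between 8047 and 10689 probes were detected per array, the fewest in resting Naïve cells, and the median intensity lay between 40.6 and 48.9. In the check of the genotype, Pbrm1 was lower in BAF180-deficient cells by all 3 of its detected probes in each state, and by its brightest probe it differed by -1.01 (log2, adjusted p = 0.121 in limma) in resting Naïve cells and by -1.42 to -1.86 in the other 3 states (adjusted p of 0.0141 or lower). The position of these probes relative to the deleted exon was not determined. All 9 T cell markers were detected on every array. Of 7 Th2 markers, 4 were detected on all 3 resting Naïve arrays of each genotype, and Il1rl1 was detected in stimulated Th2 cells only. The Th2 cytokine genes Il5 and Il13 were detected in some or all arrays of resting Th2, stimulated Th2 and stimulated Naïve cells but on no resting Naïve array. Resting Naïve cells also carried transcripts of other cell types. Of 12 myeloid markers 10 were detected on all 3 WT arrays, with a summed normalized signal above the offset of 3472 to 12589, against 69.0 to 141 in stimulated Naïve, 43.9 to 104 in resting Th2 and 48.7 to 54.1 in stimulated Th2 cells, although Itgam and Itgax themselves were not detected in these groups. The summed signal of 12 B cell markers fell in the same way, from 5292 to 7377 in WT resting Naïve cells to at most 1025 in the other WT groups. Of these B cell markers 6 were detected on all 3 WT resting Naïve arrays, and Ms4a1, Pax5, Cr2 and Ebf1 on none of them. In BAF180-deficient resting Naïve cells the sums were 4469 to 6877 for the myeloid and 6236 to 8601 for the B cell markers, against at most 93.0 and 1544 in the other BAF180-deficient groups. Each fall of an integrin from resting Naïve cells below coincides with these falls, and their part in it was not tested. In bulk samples fewer cells of a type and less RNA per cell cannot be told apart.

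Expression of Itgav, the αv subunit of vitronectin and fibronectin receptors, rose in Th2 cells upon PMA and ionomycin. In WT resting Th2 cells the deposited intensities of its probe were 65.5, 47.1 and 52.5 for replicates A, B and C, and in WT stimulated Th2 cells they were 153.5, 235.3 and 390.1. After normalization these were 5.02, 4.70 and 4.88 (log2) at rest and 7.56, 7.47 and 7.53 when stimulated, without overlap. The normalized difference was 2.65 ± 0.26 (log2, SE, n = 3 per group), which is 6.30-fold (95% interval 4.35 to 9.11, adjusted p = 1.21e-07 in limma). The same stimulus raised Itgav 6.01-fold in BAF180-deficient cells (4.16 to 8.70, adjusted p = 2.18e-07), from 4.74, 4.78 and 4.62 to 7.30, 7.33 and 7.27. The size of the rise depended on the scale, since with Z-score normalization (Z-scores within each array, multiplied by the median SD of the arrays to return them to a log2 scale) the difference was 1.87 in WT and 1.72 in BAF180-deficient cells, and without background correction 1.87 and 1.77, all still called.

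In Naïve cells Itgav did not follow this pattern. Its values were 5.82, 5.94 and 5.50 in WT resting Naïve cells and 5.82, 5.96 and 5.31 after 24 h of anti-CD3 and anti-CD28, which overlap, and the difference of -0.06 had a 95% interval from -0.59 to 0.48. Resting Th2 cells lay below resting Naïve cells, by 0.89 (log2) or 1.85-fold in WT (1.28 to 2.67, adjusted p = 0.0104), with the WT groups apart. In BAF180-deficient cells the difference was -0.95 (adjusted p = 0.00664), but resting Naïve replicate C, at 4.73 against 6.12 on replicates A and B, fell within the range of the Th2 arrays, and leaving out replicate A or replicate B of the resting Naïve group ended the call (adjusted p = 0.0511 and 0.0536), as did fitting only the arrays compared (0.0930). On the deposited scale the WT resting Naïve intensities were 56.6 to 61.8, inside the 47.1 to 65.5 of resting Th2 cells, so this difference emerged only after normalization, and with Z-scores it was -0.35 in WT and -0.43 in BAF180-deficient cells, still called.

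Itgb3, which pairs with αv in the vitronectin receptor, was near the limit of detection throughout. Its probe was detected in resting Th2 cells on 1 of 3 WT and 1 of 3 BAF180-deficient arrays, and on no array of the other 6 groups. The deposited intensities of WT cells were 36.3 to 36.7 in resting and 35.9 to 38.2 in stimulated Naïve cells, and 43.1 to 66.4 in resting Th2 and 36.4 to 45.5 in stimulated Th2 cells. Of the WT resting Th2 intensities of 66.4, 45.1 and 43.1 only that of replicate A was detected, and of the BAF180-deficient ones of 48.8, 65.9 and 53.5 only that of replicate B. All of them lay above the resting Naïve intensities of the same genotype. Because the probe entered the tests only through these 2 arrays and the other groups have a bound but no level, no size is given and the calls of the model (adjusted p = 0.0121 and 0.00797 against resting Naïve, 0.0345 and 0.0110 against stimulated Th2 cells in limma) are not read as a change. They were lost without the detected array of the genotype (adjusted p from 0.0649 to 0.271), and the WT call against stimulated Th2 cells was also lost without stimulated Th2 replicate A (0.104) or B (0.0900) and when only the arrays compared were fitted (0.158). Of 11 platelet and megakaryocyte markers, a cell lineage rich in β3, none was detected on any resting Th2 array.

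Itgb7, the β chain of the gut-homing receptor α4β7 and of αEβ7, showed the largest fall among the members. In WT cells its normalized values were 10.43, 10.31 and 10.31 at rest and 7.35, 7.59 and 7.33 in stimulated Naïve cells. The deposited intensities were 507.7 to 827.7 and 179.8 to 226.1, so the groups were apart on either scale. The fall was 7.61-fold (5.89 to 9.82, adjusted p = 7.02e-11 in limma) in WT and 7.35-fold (5.69 to 9.49, adjusted p = 9.93e-11) in BAF180-deficient cells.

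In WT resting Th2 cells the normalized Itgb7 values were 10.28, 10.42 and 10.53, a difference of 0.06 from resting Naïve cells with an interval from -0.31 to 0.43. In BAF180-deficient cells the difference was -0.23 (-0.60 to 0.14). The scaling bears on this comparison, since the deposited WT intensities, at 960.3 to 1694.7, were all above those of resting Naïve cells, whereas Z-score normalization gave -0.15 in WT and a called difference of -0.51 (adjusted p = 0.0271) in BAF180-deficient cells. Stimulation of Th2 cells for 1.5 h lowered Itgb7 1.97-fold (1.53 to 2.55, adjusted p = 0.000236) in WT cells, to 9.87, 9.38 and 9.05, and 1.76-fold (1.36 to 2.27, adjusted p = 0.00154) in BAF180-deficient cells. Normalized values did not overlap in either genotype, while the deposited WT intensities did, at 960.3 to 1694.7 and 657.2 to 1138.4. Both stimuli thus lowered Itgb7, but they differed in agent and in duration, and the sizes of the falls are not compared.

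The 2 subunits that pair with each other as the laminin receptor α6β1, Itga6 and Itgb1, were highest in resting Naïve cells. Itgb1, the β chain shared by the largest number of integrins, had WT values of 6.92, 7.10 and 5.93 in resting Naïve and 6.00, 5.69 and 5.20 in resting Th2 cells, which overlap through Naïve replicate C and Th2 replicate A. The difference of -1.02 (2.03-fold, 1.40 to 2.94) passed the test (adjusted p = 0.00382 in limma). In BAF180-deficient cells the groups were apart, at 7.11 to 7.52 against 5.63 to 6.02, and the difference was -1.40 (2.63-fold, 1.82 to 3.81, adjusted p = 0.000243). The deposited WT intensities, 72.8 to 94.2 in resting Naïve and 59.7 to 111.5 in resting Th2 cells, overlapped. The BAF180-deficient ones overlapped as well, at 93.9 to 130.3 and 90.4 to 113.2, so those groups were apart only after normalization. With Z-scores the differences were -0.48 and -0.77 and were still called. The WT call was lost when only the arrays compared were fitted (adjusted p = 0.0757).

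Upon stimulation of Naïve cells Itgb1 fell 2.05-fold in BAF180-deficient cells (1.42 to 2.96, adjusted p = 0.00244). In WT cells the difference was -0.63 and missed the threshold (adjusted p = 0.0519), with an interval from -1.16 to -0.10. It passed with the replicate letter as a block (adjusted p = 0.0231), without background correction (0.0425), with a filter that asked for detection on all 3 arrays of a group (0.0412) and without resting Naïve replicate C, when it was -0.99 (0.00143). With Z-scores it was -0.27 and did not pass (adjusted p = 0.225 in limma). The deposited WT intensities overlapped, at 72.8 to 94.2 at rest and 75.4 to 100.4 when stimulated, with means of 82.0 and 90.6. So did the BAF180-deficient ones, at 93.9 to 130.3 and 97.1 to 113.9. Stimulation of Th2 cells left differences of 0.29 in WT and -0.14 in BAF180-deficient cells, with intervals from -0.24 to 0.82 and from -0.67 to 0.39.

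Itga6 had WT values of 6.85, 5.93 and 5.09 in resting Naïve, 4.64, 5.07 and 4.92 in stimulated Naïve and 4.62, 5.13 and 5.16 in resting Th2 cells. The spread of the resting Naïve arrays was wider than the difference between these states. Of the stimulated Naïve and resting Th2 arrays only the former lay entirely below them, narrowly, at up to 5.07 against 5.09. Itga6 was lower than in resting Naïve cells by 2.12-fold in stimulated Naïve cells (1.38 to 3.25, adjusted p = 0.00538) and by 1.99-fold in resting Th2 cells (1.29 to 3.05, adjusted p = 0.0134). Both WT calls were lost when only the arrays compared were fitted (adjusted p = 0.0816 and 0.139). They also depended on resting Naïve replicate A, without which the differences were -0.64 (adjusted p = 0.0532) and -0.54 (adjusted p = 0.121), and the call for resting Th2 cells also on resting Th2 replicate A (-0.81 without it, adjusted p = 0.0717). In BAF180-deficient cells, where resting Naïve values were 5.81, 6.48 and 6.18, the falls were 2.64-fold (1.72 to 4.05, adjusted p = 0.000652) and 2.15-fold (1.40 to 3.30, adjusted p = 0.00644) without overlap of normalized values. The probe was detected on 2 of 3 stimulated Naïve arrays of each genotype. The deposited WT intensities of 54.3 to 76.7 in resting Naïve cells overlapped those of 47.4 to 57.9 in stimulated Naïve and 52.1 to 58.9 in resting Th2 cells. The BAF180-deficient ones, 57.9 to 80.1 in resting Naïve cells, likewise overlapped the 43.4 to 59.4 of stimulated Naïve and the 54.6 to 84.5 of resting Th2 cells. In stimulated Th2 cells Itga6 was detected on 1 of 3 WT and 0 of 3 BAF180-deficient arrays, and for the latter the fall from resting Th2 cells was at least 1.31-fold, which missed the threshold (adjusted p = 0.0972) but passed when only the arrays compared were fitted (0.00953). With Z-scores the WT falls in stimulated Naïve and resting Th2 cells were -0.53 and -0.46, and those of BAF180-deficient cells -0.70 and -0.48, all still called.

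Itgb2, the common β chain of the leukocyte integrins, was lowest in stimulated Naïve cells. Its WT values were 6.31, 5.81 and 6.42 in resting Naïve cells and 5.43, 5.29 and 4.94 after stimulation, a fall of 1.95-fold (1.47 to 2.58, adjusted p = 0.000401 in limma) without overlap. In BAF180-deficient cells it fell 1.68-fold (1.27 to 2.23, adjusted p = 0.00380). The deposited WT intensities, 57.5 to 90.4 and 58.3 to 64.2, overlapped, and with Z-scores the differences were -0.48 in WT and -0.34 in BAF180-deficient cells, still called. The β2 integrins are also abundant on myeloid cells. In WT cells the myeloid marker sums given above were lower than in resting Naïve cells both in stimulated Naïve and in resting Th2 cells. Between resting Naïve and resting Th2 cells Itgb2 differed by -0.18. The part of myeloid cells in these values was not tested.

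The remaining Itgb2 comparisons did not pass. Resting Th2 values, 5.68, 6.27 and 6.06 in WT cells, differed from resting Naïve values by -0.18 (-0.58 to 0.23), and stimulation of Th2 cells gave 6.58, 6.15 and 6.39, a difference of 0.37 (-0.04 to 0.77). In BAF180-deficient cells the latter difference was 0.52 (0.12 to 0.93) with an adjusted p of 0.0536, although the 3 stimulated arrays were all above the 3 resting ones after normalization. It passed without background correction (0.0497), with detection on all 3 arrays of a group (0.0492) and without stimulated Th2 replicate C (0.0203), but not with Z-scores. The deposited BAF180-deficient intensities overlapped, at 84.0 to 117.8 at rest and 82.2 to 108.8 when stimulated, with means of 97.7 and 96.4.

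**Figure D2:**
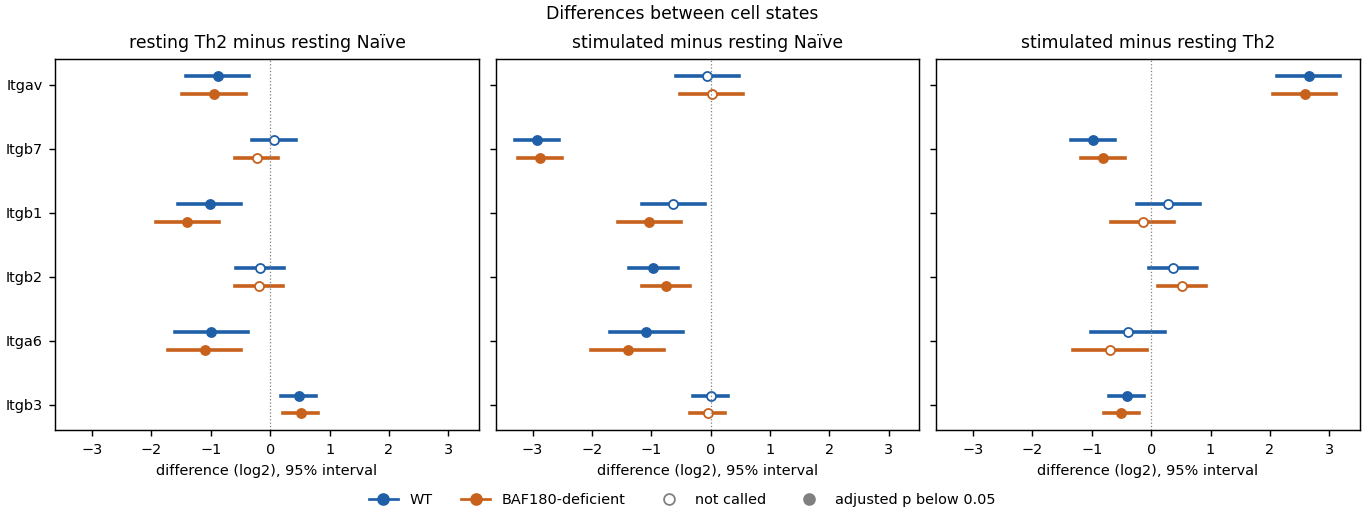
Differences between cell states (x axis, log2) for the 6 detected integrin genes (y axis) in WT and BAF180-deficient cells, with 95% confidence intervals from the linear model and filled points at an adjusted p below 0.05. Itgb7 fell in stimulated Naïve cells by 2.93 in WT and 2.88 in BAF180-deficient cells, Itgav rose in stimulated Th2 cells by 2.65 and 2.59, and the intervals of the genotypes overlap throughout. Itgb3 is drawn for completeness and its calls are not read as changes.

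Itgb3 is left out of the following counts of state changes, since it passed the detection filter only through the group where it was high. There remain 5 genes, each detected on all 3 arrays of at least 1 group. Between WT resting Naïve and resting Th2 cells 0 rose and 3 fell, where 18.4% of all tested probes rose and 16% fell. Upon stimulation of WT Naïve cells 0 rose and 3 fell, against 23.6% and 20% of all probes. Upon stimulation of WT Th2 cells 1 rose and 1 fell, against 13% and 14.3%. At an unadjusted p below 0.05 these comparisons held 3, 4 and 2 of the 5 genes, and 43.0%, 50.1% and 35.7% of all probes. In BAF180-deficient cells the counts were 0 up and 3 down for resting Th2 against resting Naïve cells (18.8% and 15.9% of all probes), 0 up and 4 down for stimulated Naïve cells (22.3% and 19.3%) and 1 up and 1 down for stimulated Th2 cells (12% and 13.8%). With so many probes called in each comparison and 5 genes counted, the counts themselves do not set the integrins apart.

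The order of the 4 states differed from gene to gene in WT cells. For Itgav it was stimulated Th2, resting Naïve, stimulated Naïve and resting Th2, and all neighbours differed but the Naïve pair. Stimulated Th2 cells exceeded resting Naïve cells by 1.77 (adjusted p = 7.17e-06 in limma, in a comparison where 48.5% of all probes were called), and resting Th2 cells lay 0.83 below stimulated Naïve cells (adjusted p = 0.0223, where 22.3% of probes were called). For Itgb7 it was resting Th2, resting Naïve, stimulated Th2 and stimulated Naïve, with the first 2 not separated, resting Naïve above stimulated Th2 cells by 0.92 (adjusted p = 0.000195), and stimulated Th2 above stimulated Naïve cells by 2.01 (adjusted p = 7.16e-08, where 20.1% of probes were called). Itgb2 ran from stimulated Th2 through resting Naïve and resting Th2 to stimulated Naïve cells, and only the last step passed, at 0.79 (adjusted p = 0.00538). For Itgb1 and Itga6 resting Naïve cells came first. The next state for Itgb1 was stimulated Naïve, at a difference that missed the threshold, and then stimulated and resting Th2 cells, with no other neighbours separated. For Itga6 the next state was resting Th2, followed by stimulated Naïve and stimulated Th2 cells, with only the first step separated. Itgb3 was detected on 1 of 3 resting Th2 arrays and in none of the other 3 states, so no order is given for it.

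Deletion of BAF180 was then considered. A genotype difference was called by 4 criteria after those of the study, with p and FDR taken from limma. They were a p below 0.05, an FDR below 0.3, a mean signal above 0 and a Z-ratio of more than 1.5. The Z-ratio is each difference divided by the SD of such differences over all probes. It was computed from the normalized log2 differences in place of differences of Z-scores. The signal criterion was applied to normalized values, which carry an added offset. Every tested probe therefore met it, whether detected in that state or not, and the calls and shares below rest on the other criteria. No integrin gene met all 4 criteria in any state, with Itgb3 counted here. That is 0 of 6 in resting Naïve cells, where 0.681% of all probes were called, 0 of 6 in stimulated Naïve (0.112%), 0 of 6 in resting Th2 (0.0842%) and 0 of 6 in stimulated Th2 cells (0.0913%). At an unadjusted p below 0.05 the count was 1 in resting Naïve cells and 0 in each of the other 3 states, against 6.83% of all probes in resting Naïve and 2.25% to 3.43% in the other cells.

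The gene at that threshold was Itgb1 in resting Naïve cells, with 6.92, 7.10 and 5.93 in WT and 7.52, 7.11 and 7.15 in BAF180-deficient cells. The BAF180-deficient values were higher by 0.61 on average (0.07 to 1.14, unadjusted p = 0.0276 and adjusted p = 0.664 in limma). For the other members and states the differences ranged from -0.26, for Itgb2 in resting Th2 cells, to 0.23, for Itgb1 in resting Th2 cells. For Itgav in stimulated Th2 cells the difference was -0.22 (-0.75 to 0.31). The 95% intervals over all genes and states reached from -0.84 to 1.14, so that 3 arrays per group leave room for changes of this size.

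**Figure D3:**
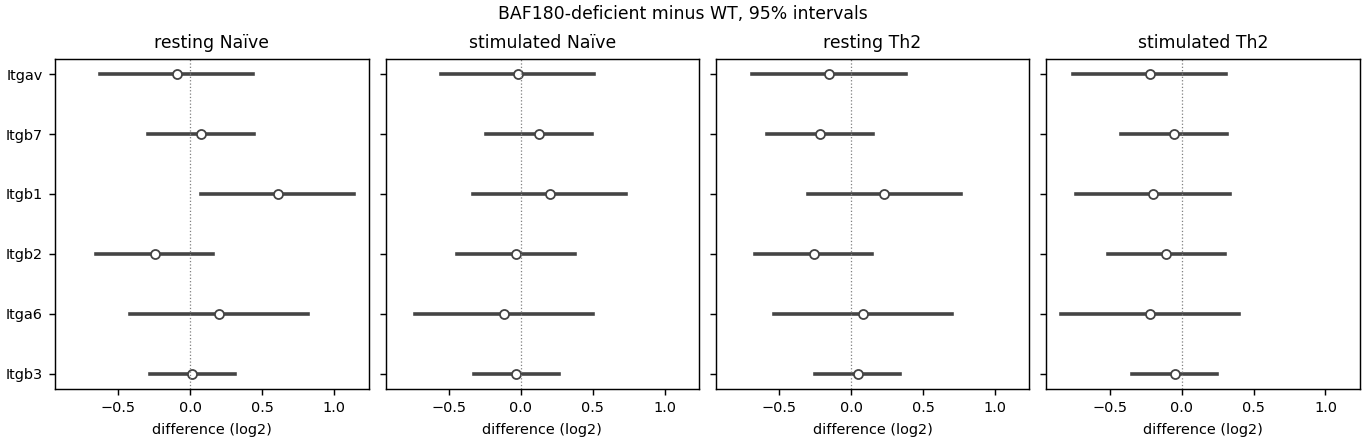
Difference between BAF180-deficient and WT cells (x axis, log2, with 95% confidence intervals) for the 6 detected integrin genes (y axis) in the 4 cell states, with open points because none met the criteria. All intervals include 0 except that of Itgb1 in resting Naïve cells, from 0.07 to 1.14.

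Whether the state changes themselves depended on BAF180 was tested as an interaction of genotype and state in limma. No integrin passed, that is 0 of 6 for Th2 differentiation and 0 of 6 for stimulation of Naïve cells, where 0.00702% of all probes passed in each, and 0 of 6 for stimulation of Th2 cells, where 0% did. None had an unadjusted p below 0.05. The interaction for Itgav in stimulated Th2 cells was -0.07 (-0.82 to 0.69), that for Itgb7 in stimulated Naïve cells was 0.05 (-0.47 to 0.57), and the interval that reached farthest from 0 ended at -1.19, for Itga6 in stimulated Naïve cells. The call for Itgb1 upon stimulation of Naïve cells, present in BAF180-deficient and absent in WT cells, corresponds to an interaction of -0.41 (-1.16 to 0.35), which did not pass.

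Of the 18 other integrin subunits considered, 16 had a probe and 9 were detected. In WT cells 1 rose and 3 fell between resting Naïve and resting Th2 cells, 0 rose and 5 fell upon stimulation of Naïve cells, and 2 rose and 2 fell upon stimulation of Th2 cells, beside the shares of all probes given above. Itgad and Itga9 are among the falls from resting Naïve cells in both comparisons. They passed the detection filter only through resting Naïve arrays, so the filter itself favoured a fall, and these counts are not read as a result. Itgae, the αE partner of β7, had group means of 8.17 ± 0.27 (SD, n = 3) in WT resting Naïve cells and 5.32 ± 0.13 after their stimulation, a 7.23-fold fall (adjusted p = 1.64e-07 in limma) beside that of Itgb7. In resting Th2 cells it was 5.02 ± 0.70, a difference from resting Naïve cells of -3.16 (log2, adjusted p = 7.18e-08), while Itgb7 differed by 0.06. Itgad, the αD partner of β2, was detected on all resting Naïve arrays and on none of the other states, and fell at least 12.6-fold in stimulated Naïve and at least 13.1-fold in resting Th2 cells, as did the myeloid marker sums. Itga3, a partner of β1, rose 6.97-fold in WT stimulated Th2 cells (adjusted p = 4.50e-05), from 4.99 ± 0.49 to 7.79 ± 0.99, next to the rise of Itgav, and its change in BAF180-deficient cells was 2.56 (log2, adjusted p = 0.000142). Itgb5, the β5 partner of αv, was lower in WT stimulated than in WT resting Th2 cells, from a detected 5.70 ± 0.39 (SD, n = 3) to a level detected on 1 of 3 arrays (adjusted p = 0.000775 in limma). Itga7, a further partner of β1, was 1.70-fold higher in WT resting Th2 than in WT resting Naïve cells (adjusted p = 0.00769), where it was detected on 2 of 3 arrays. In BAF180-deficient cells the difference was 1.29-fold and was not called (adjusted p = 0.184 in limma).

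**Figure D4:**
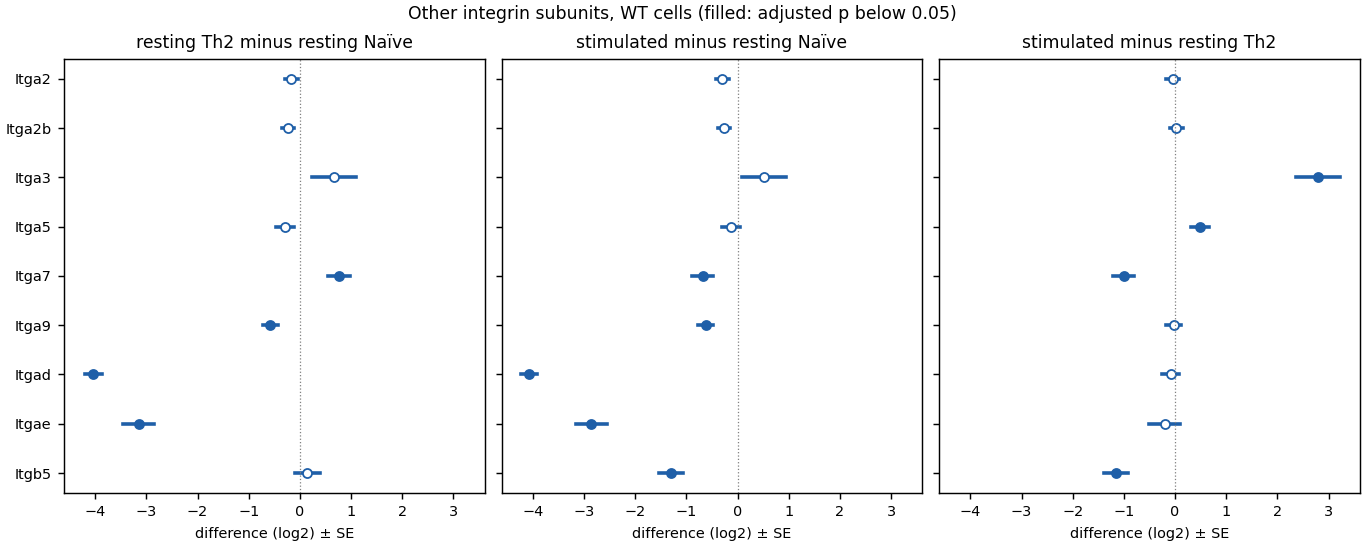
Differences between cell states in WT cells (x axis, log2, with SE bars) for the 9 detected integrin subunits outside the main group (y axis), filled at an adjusted p below 0.05. Itgae fell by 2.85 in stimulated Naïve cells and Itga3 rose by 2.80 in stimulated Th2 cells.

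Of 12 genes for integrin ligands, 11 had a probe and 8 were detected. Vcam1, the ligand of α4β1, was detected on all 3 WT resting Naïve arrays and was lower in stimulated Naïve cells (adjusted p = 1.88e-17 in limma), where it was detected on 1 of 3 arrays, and fell at least 103-fold in resting Th2 cells, where it was detected on none, again with the myeloid marker sums. Spp1, which encodes the αv ligand osteopontin, rose 8.14-fold upon stimulation of WT Th2 cells (adjusted p = 1.61e-05), as Itgav did. Cd47, a partner of αvβ3 on the cell surface, fell 4.73-fold (adjusted p = 1.90e-05). In all, 0 ligand genes rose and 2 fell for resting Th2 against resting Naïve cells, 0 and 4 for stimulated Naïve cells, and 2 and 2 for stimulated Th2 cells, and each count is to be read against the shares of all probes given above.

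Among 56 genes for integrin activation and adhesion adaptors, 52 had a probe and 44 were detected. Stimulation of WT Naïve cells lowered 27 of them and raised 1 (20% and 23.6% of all probes), with a median difference of -0.76 against 0.01 over all probes. The single rise was Tes, a focal adhesion protein (1.50-fold, adjusted p = 0.00230 in limma). Stimulation of WT Th2 cells lowered 17 and raised 5 (14.3% and 13%), with a median of -0.38. The falls included Fyb, the adaptor that couples the T cell receptor to integrin activation (4.78-fold, adjusted p = 3.09e-06), and Cytip, a binding partner of the β2 regulator cytohesin (4.19-fold, adjusted p = 6.67e-08), and the rises Ptk2, the focal adhesion kinase (2.50-fold, adjusted p = 3.52e-06). Between WT resting Naïve and resting Th2 cells 14 fell and 0 rose (16% and 18.4%), led by the actin crosslinker Actn1 (10.1-fold, adjusted p = 1.06e-07). BAF180-deficient cells gave 23 falls and 1 rise for Naïve stimulation (19.3% and 22.3% of all probes). They gave 19 and 4 for Th2 stimulation (13.8% and 12%) and 14 and 0 for resting Th2 cells (15.9% and 18.8%). Between the genotypes 0 genes of these 3 lists met the criteria in any state. The 9 T cell markers gave 0 rises and 5 falls upon stimulation of WT Naïve cells, with a median of -0.60. For WT resting Th2 against resting Naïve cells they gave 1 rise and 0 falls, and upon WT Th2 stimulation 0 of each. Falls of adaptors from resting Naïve cells also coincide with those of the myeloid and B cell markers, whose part was not tested.

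The integrins did not share a single pattern. Itgb3, detected on 2 arrays, is left out of the correlations between members. Over the 24 arrays, which share groups, the correlation between pairs of the other 5 genes ran from -0.36, for Itga6 with Itgav, to 0.70, for Itgb2 with Itgb7 and for Itga6 with Itgb1. The genes most like Itgav over all arrays were Gch1 (r = 0.965) and Dot1l (0.956), and those most like Itgb7 were Il7r (0.961), the IL-7 receptor of resting T cells, and Igfbp4 (0.956). Itgb1 was most like Bag3 (0.941) and Lmtk2 (0.921), and Itga6 most like Klc4 (0.919) and Tmem176a (0.906). For Itgb2 these were H2-Q7 (0.896) and Trp53inp1 (0.878), and for Itgb3, mostly below detection, Gbp11 (0.951) and Odf3b (0.948). These genes were picked for the highest values among all those tested.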

How the data were processed

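Total RNA was labelled as cRNA and hybridized to Illumina MouseRef-8 v2 arrays. The authors deposited bead intensities without normalization or background subtraction and detection p-values from GenomeStudio (version 1.6.0 in the submitters' processing notes). The Z-score normalization of the methods was recomputed here as an alternative only, scaled back to log2 units by the median SD of the arrays. Background was corrected from the detection p-values and quantile normalization on the log2 scale followed, with 16 added to each corrected intensity (neqc of limma 3.58.1 in R 4.3.3). The means of the 8 groups were then estimated by lmFit and eBayes for the 14246 probes detected on at least 1 array, with moderated variances (16 residual degrees of freedom, 20.3 after moderation) and Benjamini-Hochberg adjustment over all of them. State differences and interactions were called at an adjusted p below 0.05. A gene was read by its brightest detected probe. The fit was tested on simulated data.

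The members, lists and tests were chosen with earlier results of these data known. Named genes outside the members were the called genes with the 3 largest rises and falls in each WT state comparison over the 3 lists of partners, ligands and adaptors, with further values of Itgae, Itga3 and Itgb5 given because they pair with members (chosen after their values were seen), and the 2 genes most correlated with each member.

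Array replicates come from separate samples, and the methods state pairs of mice. Deviations of same-letter arrays from their group means correlated between the genotypes at 0.301 (A), 0.136 (B) and 0.516 (C), pooled over the states. In single states they ran from 0.047 to 0.648 (A), -0.0026 to 0.251 (B) and 0.347 to 0.662 (C). The letters were read as pairs, with the unpaired fit as the main one. What same-letter arrays share was not tested. Alternatives were Z-score normalization, no background correction, no or a stricter detection filter, only the arrays compared, the replicate block and leaving out each array. Precision is limited by having 3 arrays per group. No array was a copy of another, the 24 replicate pairs correlating at 0.949 to 0.989.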

Additional observations from a re-analysis of the deposited data

How the results depend on the processing

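The large changes, Itgav upon Th2 stimulation and Itgb7 upon either stimulation, kept their direction and their call in both genotypes under every alternative that was run, and no integrin was called between the genotypes or in an interaction under any of them. The other calls were less firm. With Z-score normalization in place of the quantile normalization, resting Th2 minus resting Naïve differences turned to 0.076 (WT) and 0.13 (BAF180-deficient) for Itgb2 and to -0.15 (WT) for Itgb7, and the WT Itgav difference upon Naïve stimulation turned to 0.093. Without background correction the BAF180-deficient Itgav difference upon Naïve stimulation turned to -0.018. None of these was called in the analysis reported above, and no called state difference lost its call under either setting, with smaller sizes given beside the results. Calls were gained for Itgb7 between BAF180-deficient resting Naïve and resting Th2 cells with Z-scores (-0.51, adjusted p = 0.0271), and, both without background correction and with the stricter detection filter, for Itgb1 in WT stimulated Naïve and Itgb2 in BAF180-deficient stimulated Th2 cells. Fitting only the arrays compared, which leaves fewer residual degrees of freedom, reduced the WT genes called between resting Naïve and resting Th2 cells from 4 (Itgb3 included) to 1, Itgav. It also ended the calls for Itga6 in WT stimulated Naïve cells, Itgb3 in WT stimulated Th2 cells and Itgav between BAF180-deficient resting states and gained 1 for Itga6 in BAF180-deficient stimulated Th2 cells, and leaving out single arrays gave between 2 (without resting Th2 WT replicate A) and 4. The replicate block, under which the Itgb1 difference in WT stimulated Naïve cells (-0.63) passed with an adjusted p of 0.0231, changed no other call.

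Leaving out 1 array turned the sign of differences that were not called. State differences then ranged from -0.0019 to 0.13 for Itgb7 (WT resting Th2 minus resting Naïve) and, upon Naïve stimulation, from -0.19 to 0.14 for Itgav and from -0.013 to 0.0039 for Itgb3 in WT cells, and from -0.45 to 0.25 for Itgav in BAF180-deficient cells, where the lowest value, without resting Naïve replicate C, passed the threshold (adjusted p = 0.0477). Genotype differences in resting Naïve cells ranged from -0.23 to 0.64 for Itga6, from -0.33 to 0.37 for Itgav, from -0.0026 to 0.039 for Itgb3 and from -0.0054 to 0.17 for Itgb7. In stimulated Naïve cells they ranged from -0.24 to 0.11 for Itga6, from -0.22 to 0.11 for Itgav and from -0.17 to 0.081 for Itgb2. In resting Th2 cells they ranged from -0.092 to 0.18 for Itga6 and from -0.10 to 0.24 for Itgb3, and in stimulated Th2 cells from -0.34 to 0.016 for Itgb1, from -0.23 to 0.057 for Itgb2 and from -0.25 to 0.16 for Itgb7. The cause was not tested. Slide as a block was not run because the slide of each array was not given in the sources used here, and averaging the probes of a gene could not change a value because each of the 6 genes had 1 detected probe. Signal over background limits Itgb3, Itga6 and Itga4 most.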
